A study of Homo sapiens with 12 samples.

Results

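The genes described here are 4 keratins, KRT8, KRT18, KRT19 and KRT23, and 5 genes often used to mark bile duct cells or liver progenitors, SOX9, EPCAM, CD24, PROM1 and SPP1. They were taken by name from the 47634 gene IDs counted in every library by a rule that uses the names alone, though the names were proposed with earlier results of these data in view. Of the 9 names, 8 were matched to a gene ID and CD24 was not analysed here. All 8 matched genes passed the filter on low counts. The cells were HepG2, a human hepatocellular carcinoma line, compared with a knockout (KO) of ATP7B in the same line. ATP7B is the ATPase that carries copper out of hepatocytes, and its loss causes Wilson disease. The 4 groups were wild type untreated, wild type with copper for 24 h, ATP7B KO untreated and ATP7B KO with copper for 24 h, with 3 libraries labelled as biological replicates in each. The labels describe 1 KO line, with neither a copper dose nor the position of the edit, so a difference between KO and wild type is a difference between these lines.

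Keratins form intermediate filaments as obligate pairs of a type I and a type II chain. KRT8, a type II chain, and KRT18, a type I chain, are the pair of hepatocytes, whereas bile duct cells and progenitor cells add the type I chain KRT19. KRT23 is a less studied type I keratin that is low in normal liver. Mallory-Denk bodies, inclusions of KRT8, KRT18, ubiquitin and the autophagy receptor SQSTM1, form in hepatocytes in several chronic liver diseases, Wilson disease among them. SOX9 is a transcription factor of bile duct and progenitor cells, EPCAM an epithelial adhesion molecule, PROM1 (CD133) a membrane protein of progenitor cells and SPP1 (osteopontin) a secreted matrix protein.

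Levels are given as CPM, the count of a gene divided by the library's total and scaled to 1e6. The 3′ assay makes about 1 fragment per transcript, so CPM can be set side by side between genes without a length. Library totals ran from 976658 to 3829151 counts, so that 3 counts, the upper limit that a count of 0 allows, were between 0.783 and 3.07 CPM. Such limits cover counting error only, and without molecular identifiers amplified copies cannot be told apart. Between replicates, the correlation across genes of log2 CPM was 0.986 to 0.988 in untreated wild type but 0.798 to 0.927 in untreated KO. On the first principal component, which held 44.2% of the variance, wild type copper replicate 1 (23.9) and KO untreated replicates 1 and 2 (111 and 120.4) stood apart from the other 9 libraries, all of which were below 0. Results on the members that rest on these 3 libraries are given with and without them, and for genes of the related lists the value without them is given where it ends a call or moves a value by more than 1.5 times. Without them KO untreated replicate 3 is alone in its group and is assumed to vary like the other groups. These 3 libraries also had the lowest totals, at 1873703, 1443372 and 976658 counts. The part of depth in their values was not tested. ATP7B itself was at 12.7, 13.1 and 12.4 CPM in untreated wild type and at 9.01, 2.05 and 11.6 CPM in untreated KO, a log2 difference of -0.75 ± 0.38 (SE, adjusted p = 0.148). In copper wild type held 5.34, 3.92 and 3.87 CPM of it and KO 3.92, 4.19 and 6.77 CPM, a log2 difference of 0.15 ± 0.44 (adjusted p = 0.855) in the other direction. ATP7B fell with copper in wild type by -1.51 ± 0.41 (edgeR, adjusted p = 0.0264). Its copper change in KO, -0.61 ± 0.42, did not pass (adjusted p = 0.274). A 3′ tag outside the edited part does not check the knockout.

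All log2 fold changes below come from 1 edgeR quasi-likelihood fit over 11051 genes, with Benjamini-Hochberg adjusted p-values called at 0.05. The fit multiplies each library total by a scaling factor (TMM), from 0.943 to 1.13. CPM and the ranges of CPM do not use these factors, so a narrow gap in CPM need not hold in the fit. A value after ± is a standard error (SE) for a log2 fold change and a standard deviation (SD, n = 3) for a CPM mean. P-values measure the spread between these libraries. In bulk RNA, fewer cells of a type and less RNA per cell cannot be told apart.

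In wild type cells with copper, 3 members rose (KRT19, KRT23 and SPP1) and 1 fell (SOX9), where 14.9% of all genes were called, 8.23% as risen and 6.68% as fallen. In KO cells with copper, 2 rose (KRT18 and KRT19) and 3 fell (SOX9, EPCAM and SPP1), where 33.7% of all genes were called, 15.2% as risen and 18.5% as fallen. In untreated cells 5 members were higher in the KO line than in wild type (KRT8, KRT19, KRT23, EPCAM and SPP1) and 0 were lower, where 31.9% of all genes were called, 17.9% as higher and 14.0% as lower. In copper 2 members were lower in KO than in wild type (SOX9 and SPP1) and 0 higher, where 13.8% of all genes were called, 5.77% as higher and 8.03% as lower. The copper response differed between the lines for 1 member (SPP1), where 4.93% of all genes were called, 1.26% with a higher and 3.67% with a lower response in KO. The members' median log2 change was 0.30 and -0.16 with copper in wild type and KO, and 0.87 and -0.05 for KO against wild type without and with copper. The medians over all genes tested were -0.03, 0.01, -0.02 and 0.05 in the same order. The replicate ranges of CPM did not overlap for 6, 6, 4 and 6 of the 8 members in these comparisons, against 48.4%, 44.3%, 44.7% and 46.3% of all genes. Without the 3 libraries that stood apart, 6, 5, 4 and 7 members were called in these comparisons, where 40.0%, 39.6%, 34.5% and 37.9% of all genes were, and 3 for the difference between the copper responses, where 8.77% were. Without KO untreated replicate 3 alone, which left replicates 1 and 2 as that group, 7 members were called for the difference between the responses. These were all but PROM1, and 5888 of all 11429 genes tested in that fit were called too.

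**Figure D1:**
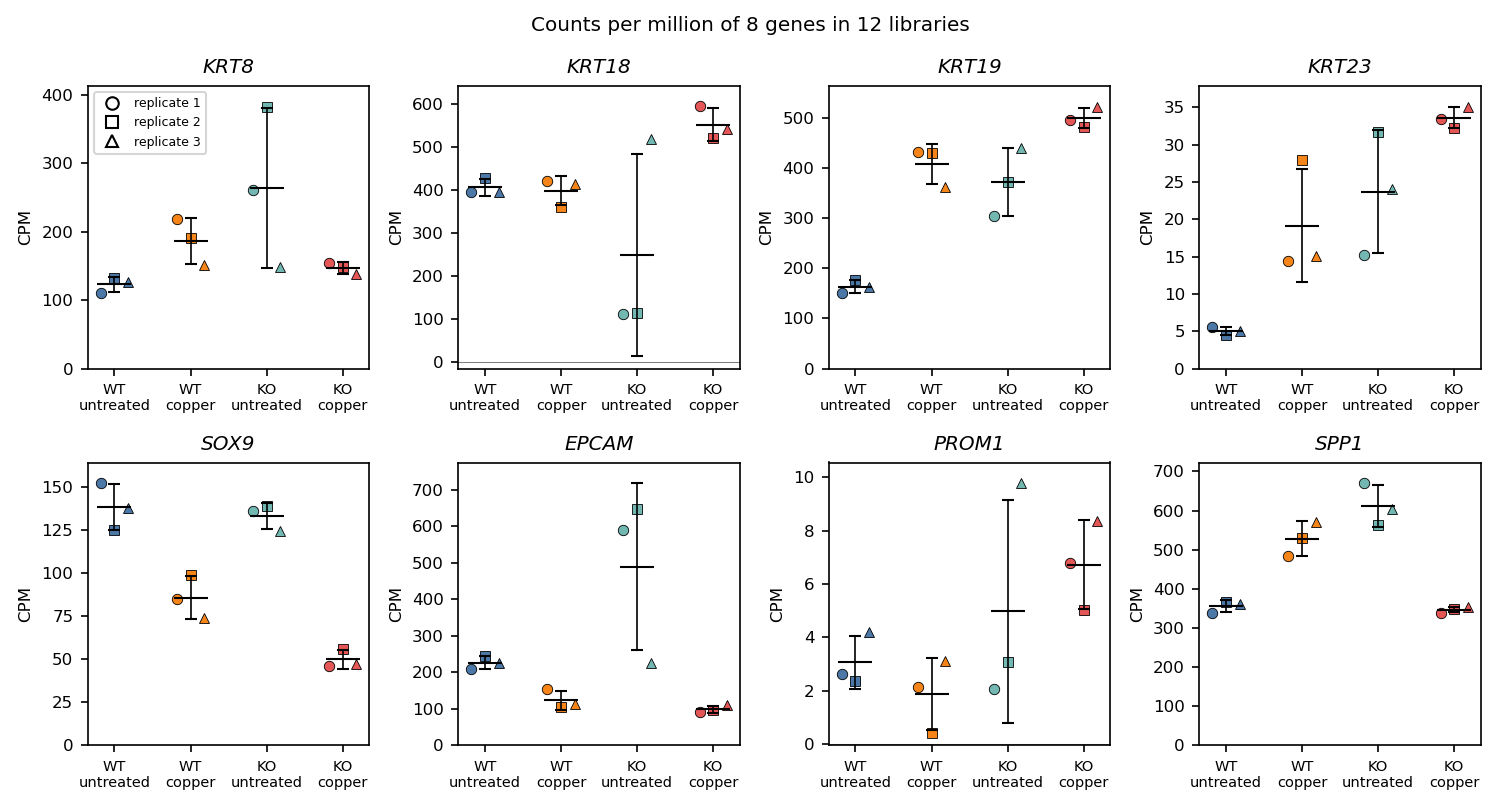
CPM of each of the 8 members in every library, by group, on a linear axis for each gene. Points are libraries (shape marks the replicate), horizontal lines are means of 3 and vertical bars are 1 SD. KRT18 in untreated KO cells splits into 112 and 115 CPM in replicates 1 and 2 and 519 CPM in replicate 3, and SOX9 is lowest in KO cells with copper.

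**Figure D2:**
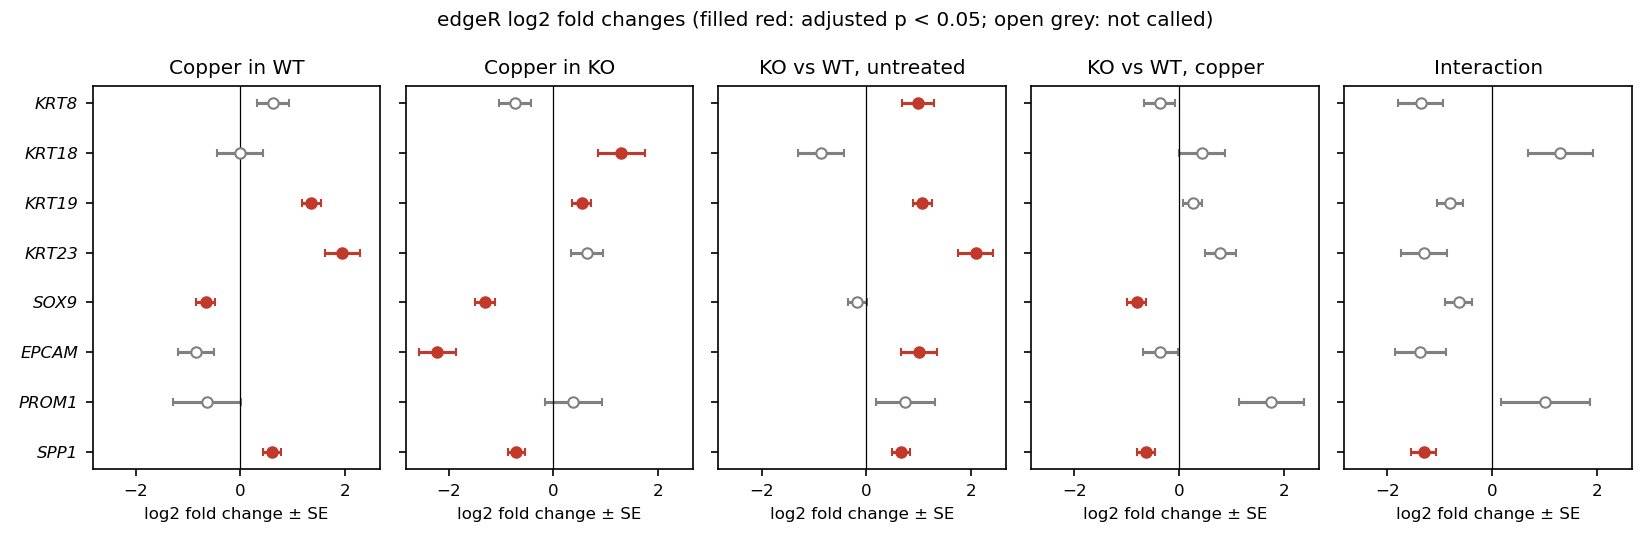
Log2 fold change of each member in the comparisons, with the SE as a bar; filled red points passed an adjusted p of 0.05 and open grey points did not. KRT19 and KRT23 are above 0 both with copper and for KO against wild type, and SPP1 lies above 0 with copper in wild type (0.60) and below 0 with copper in KO (-0.71).

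KRT8, the type II keratin, was at 110.5, 132 and 126 CPM in untreated wild type and at 261, 382 and 148 CPM in untreated KO. Its log2 difference between the untreated lines was 0.99 ± 0.31 (adjusted p = 0.0282), and in CPM the lowest KO library was above every wild type library. That gap, 148 against 132 CPM, need not hold on the scale of the fit. The factor there was 1.13 for KO untreated replicate 3 and 0.973 for wild type untreated replicate 2. With copper KRT8 was at 218, 190.0 and 151 CPM in wild type and at 154, 148 and 137 CPM in KO. Neither copper response passed the test, with log2 changes of 0.63 ± 0.30 in wild type (adjusted p = 0.190) and -0.74 ± 0.31 in KO (adjusted p = 0.0778). In order of their means the groups were untreated KO, wild type with copper, KO with copper and untreated wild type. Only untreated wild type was separated from its neighbour in that order, and narrowly (132 against 137 CPM, without the factors of the fit).

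The higher KRT8 in untreated KO cells rested on replicates 1 and 2, which stood apart but are 2 of the 3 libraries of that group. Without the 3 libraries that stood apart, which leaves KO untreated replicate 3 alone, the log2 difference was 0.06. The copper response in KO then changed its sign to 0.17. The rise with copper in wild type was then 0.53 (adjusted p = 2.5e-04). Leaving out any 1 of the 3 untreated wild type libraries, or KO untreated replicate 1 or 2, ended the call of KRT8 in untreated KO, with adjusted p between 0.0651 and 0.113. The call held without KO untreated replicate 3. Over the 12 fits without 1 library the difference ran from 0.63 to 1.33.

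KRT18, the type I partner of KRT8, was at 395, 429 and 396 CPM in untreated wild type and at 422, 359.9 and 414 CPM in wild type with copper. These ranges overlapped and the log2 change was 0.00 in size, with an SE of 0.44 (adjusted p = 0.998). In untreated KO it was at 112, 115 and 519 CPM, and in KO with copper at 594, 521 and 541 CPM. The first 2 untreated KO libraries were below every other library of the study, whereas the third was above every wild type library. KRT18 rose with copper in KO by a log2 change of 1.30 ± 0.45 (adjusted p = 0.0411), and KO with copper was above all libraries of the other groups. Without the 3 libraries that stood apart the change was 0.27 (adjusted p = 0.0700), and the call held in just 1 of the 12 fits that left out 1 library, the one without KO untreated replicate 3.

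Between the untreated lines KRT18 differed (KO minus wild type) by -0.86 ± 0.44 (adjusted p = 0.148), by 0.15 (adjusted p = 0.337) without the 3 libraries, and by -1.89 (adjusted p = 3.6e-07) without KO untreated replicate 3 alone. With copper it differed by 0.44 ± 0.44 (adjusted p = 0.546), and by 0.43 (adjusted p = 4.4e-04) without them. KRT18 is also the member with the most near-identical copies. Of 67 annotated KRT18 pseudogenes 41 had a count, 431 counts in all against 13488 for KRT18. They made up 2.37% to 15.2% of the summed counts of KRT18 and its pseudogenes in a library. For KRT8, 17 of 51 pseudogenes held 34 counts against 4975, and for KRT19, 1 of 5 held 1 count against 10653. In the last 300 bases of the KRT18 transcript, 10 of 226 windows of 75 bases, the read length, had an exact copy in another gene's transcript (GENCODE v29), and 0 of 226 in each of the other members. Adding the pseudogene counts to their parents changed no count of members called.

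Because KRT8 and KRT18 pair in filaments, their counts were also set against each other within each library, where the scaling between libraries cancels. KRT18 per KRT8 was 3.58, 3.25 and 3.14 in untreated wild type and 3.85, 3.51 and 3.94 in KO with copper. In wild type with copper it was 1.94, 1.89 and 2.74, below every untreated wild type library. In untreated KO the ratio was 0.430, 0.300 and 3.52, so replicates 1 and 2 held more KRT8 than KRT18 and replicate 3 did not. The labels do not tell these 3 KO libraries apart, but their totals differed, at 1443372, 976658 and 3277087 counts.

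**Figure D3:**
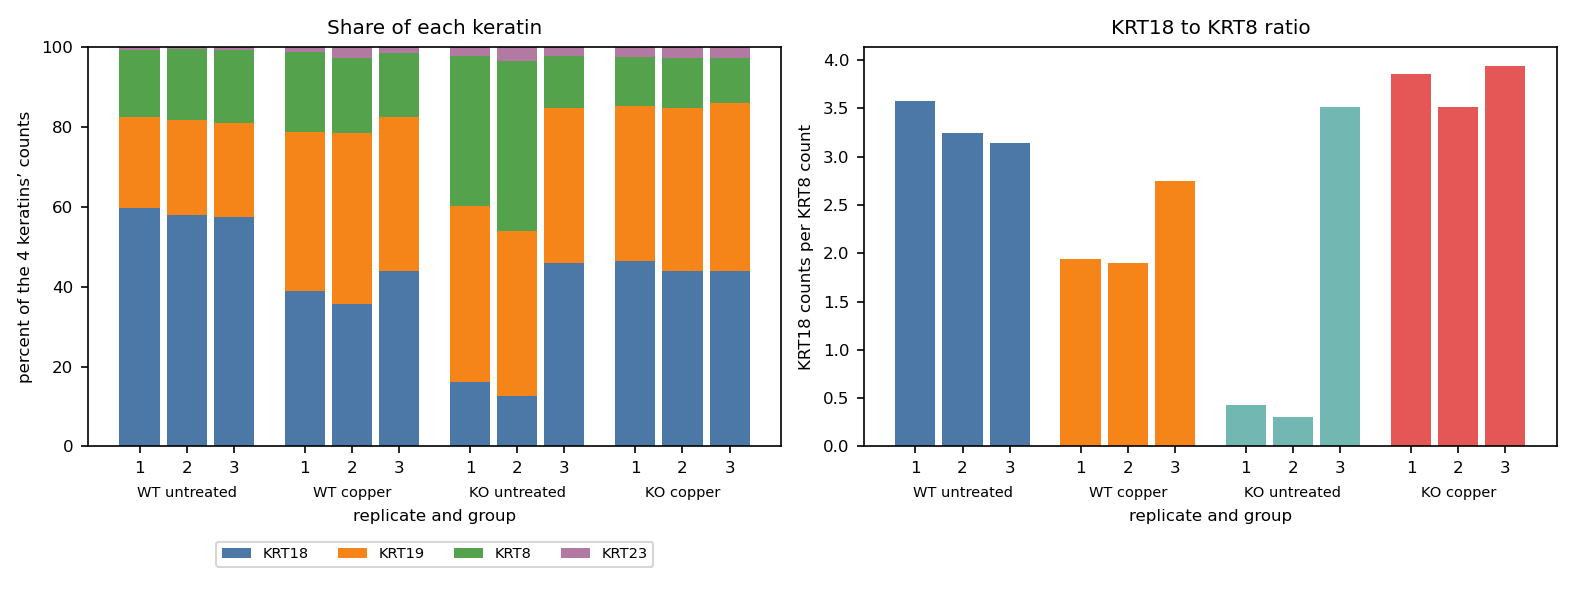
Left, percent of the summed counts of the 4 keratins taken by each keratin; right, KRT18 counts per KRT8 count on a linear axis; 1 bar for each of the 12 libraries. The ratio is under 1 in KO untreated replicates 1 and 2 (0.430 and 0.300) and between 1.89 and 3.94 in the other 10 libraries.

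KRT19, the type I keratin of bile duct cells, was at 151, 177 and 162 CPM in untreated wild type and at 432, 430.1 and 363 CPM in wild type with copper. It rose with copper in wild type by a log2 change of 1.35 ± 0.18 (adjusted p = 7.1e-04), with no overlap. In untreated KO it was at 304, 372 and 440.3 CPM, all above untreated wild type, a rise of 1.06 ± 0.18 (adjusted p = 0.00186). In KO with copper it was at 495, 482 and 522 CPM, above every library of the other groups, and the rise with copper in KO was 0.54 ± 0.18 (adjusted p = 0.0355). Wild type with copper and untreated KO overlapped. In copper the lines differed by 0.26 ± 0.18 (adjusted p = 0.370), although their ranges were apart.

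The rises of KRT19 in wild type with copper and in untreated KO held in each of the 12 fits that left out 1 library. The smaller rise with copper in KO did not pass in 8 of the 12, with adjusted p of 0.0519 to 0.123: those without any 1 untreated wild type or KO copper library, and those without KO untreated replicate 1 or 2. The copper response of KRT19 was smaller in KO than in wild type by -0.81 ± 0.26, which did not pass (adjusted p = 0.0704). Without the 3 libraries that stood apart this difference was -0.98 (adjusted p = 2.6e-05). Among the 4 keratins summed, KRT19 took 22.8% to 23.8% in untreated wild type and 38.4% to 43.9% in the other 9 libraries. The share of KRT18 was 57.5% to 59.7% in untreated wild type, 35.7% to 43.9% in wild type with copper, 43.8% to 46.5% in KO with copper and 16.2%, 12.7% and 45.9% in untreated KO. The sum itself was 661 to 742 CPM in untreated wild type, 943 to 1086 CPM in wild type with copper and 1184 to 1277 CPM in KO with copper. In untreated KO it was 693 to 1131 CPM, which overlapped both wild type groups.

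KRT23 was the least abundant of the 4 keratins, at 5.54, 4.44 and 5.05 CPM in untreated wild type, from 17 to 21 counts a library. Wild type with copper held 14.4, 27.9 and 15.1 CPM, and untreated KO 15.2, 31.7 and 24.1 CPM. KO with copper held 33.5, 32.2 and 35.0 CPM, above every library of the other groups. KRT23 rose by a log2 change of 1.95 ± 0.33 with copper in wild type (adjusted p = 0.00238) and by 2.09 ± 0.33 in untreated KO against wild type (adjusted p = 0.00122), and both calls held in each of the 12 fits that left out 1 library. Copper in KO gave 0.64 ± 0.30 (adjusted p = 0.114) and KO against wild type in copper 0.78 ± 0.29 (adjusted p = 0.0976). Without the 3 libraries these values were 0.66 (adjusted p = 0.0353) and 0.58 (adjusted p = 0.0313). The annotation has a gene on the opposite strand over the end of KRT23. No source used here gives the strand setting of the counting, so how reads in the overlap were counted is not known.

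KRT19 and KRT23 had the highest Pearson correlation between 2 members, 0.934 over the 12 libraries, which share the groups and the scaling. The share of counts on mitochondrial genes was 2.97% to 3.80% in untreated wild type, 6.58% to 8.59% in wild type with copper, 5.82% to 8.85% in untreated KO and 8.34% to 9.46% in KO with copper. It was thus lowest in the group where KRT19 and KRT23 were lowest, and its part in their values was not tested.

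SOX9, the biliary transcription factor, was at 152, 125 and 138 CPM in untreated wild type and at 136, 139 and 125 CPM in untreated KO. These ranges overlapped, with a log2 difference of -0.18 ± 0.18 (adjusted p = 0.464). With copper SOX9 was at 84.9, 98.9 and 74.0 CPM in wild type and at 46.3, 56.1 and 47.4 CPM in KO. SOX9 fell with copper in both lines, and the 3 levels (untreated cells of both lines, wild type with copper, KO with copper) were separated with no overlap. The change was -0.67 ± 0.18 in wild type (adjusted p = 0.0275) and -1.30 ± 0.19 in KO (adjusted p = 3.9e-04), and in copper SOX9 was lower in KO by -0.81 ± 0.18 (adjusted p = 0.0123). The difference between the copper responses, -0.64 ± 0.26, did not pass (adjusted p = 0.118).

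The fall of SOX9 with copper in KO held in each of the 12 fits without 1 library. The fall in wild type did not pass in 5 of them (adjusted p = 0.0599 to 0.113: without any 1 untreated wild type library, or wild type copper replicate 1 or 3), and the lower level in KO with copper in 3 (0.0561 to 0.0669: without wild type copper replicate 2, or KO copper replicate 1 or 3). SOX9-AS1 is annotated on the opposite strand over the end of SOX9, so here too it is not known how reads in the overlap were counted. KRT19 and SOX9, both used as markers of bile duct cells, had a Pearson correlation of -0.784 over the 12 libraries. KRT19 was highest, and SOX9 lowest, in KO with copper.

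EPCAM was at 209, 243 and 226 CPM in untreated wild type and at 591, 649 and 226 CPM in untreated KO. KO replicate 3 was within the wild type range and replicates 1 and 2 were above it. The log2 difference was 1.01 ± 0.34 (adjusted p = 0.0398). Without the 3 libraries that stood apart, which leaves KO untreated replicate 3 alone, it was -0.20. The call ended in 10 of the 12 fits without 1 library (adjusted p = 0.0521 to 0.134). It held without wild type copper replicate 1 and without KO untreated replicate 3. Over the 12 fits the difference ran from 0.77 to 1.41. With copper EPCAM was at 153, 105 and 112 CPM in wild type and at 89.8, 96.7 and 109 CPM in KO, and every copper library was below every untreated one. EPCAM fell with copper in KO by -2.22 ± 0.35 (adjusted p = 8.0e-04), and by -1.03 (adjusted p = 4.7e-08) without the 3 libraries. In wild type the change was -0.85 ± 0.34 (adjusted p = 0.115), and -1.002 (adjusted p = 2.4e-09) without them. The difference between the copper responses was -1.37 ± 0.48 (adjusted p = 0.0887), and -0.02 (adjusted p = 0.961) without them.

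PROM1 was near the lower limit of this depth, with 1 to 32 counts a library. Its level was 2.64, 2.35 and 4.21 CPM in untreated wild type, and 2.13, 0.436 and 3.10 CPM after copper in that line. Untreated KO held 2.08, 3.07 and 9.76 CPM, the first 2 from 3 counts each, and KO with copper 6.77, 5.02 and 8.36 CPM. Neighbouring groups in the order of means overlapped throughout, and no comparison of PROM1 passed the test by edgeR, DESeq2 or limma voom, with 1 at an unadjusted p under 0.05 by edgeR. KO with copper lay above wild type with copper in all 3 libraries, with a log2 difference of 1.75 ± 0.62 (adjusted p = 0.0793), and 1.77 (adjusted p = 0.00796) without the 3 libraries that stood apart. Its uncalled copper change in KO was 0.38 ± 0.55 with all libraries (adjusted p = 0.613) and -0.36 (adjusted p = 0.550) without them. FGFBP2 is annotated on the same strand over the end of PROM1.

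SPP1 is the secreted member and had the highest mean of the markers in each group. Its promoter is shown because it is the one member whose copper response differed between the lines by the test. The window from 250 bases before the start site to 50 from it on (RefSeq, GRCh38.p14, chr4:87975464-87975763, plus strand, 5′ to 3′) reads:

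SPP1 promoter: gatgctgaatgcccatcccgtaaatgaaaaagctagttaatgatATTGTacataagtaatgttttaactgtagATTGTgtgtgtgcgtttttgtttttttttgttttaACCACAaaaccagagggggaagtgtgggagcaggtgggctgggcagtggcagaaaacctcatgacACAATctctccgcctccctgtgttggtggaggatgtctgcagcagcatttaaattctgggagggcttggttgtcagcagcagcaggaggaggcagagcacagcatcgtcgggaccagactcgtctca

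Capitals mark matches, on either strand, to a SOX core (ACAAT) at positions -206, -177 and -77 and to a RUNX core (ACCACA) at -142, counted from 0 at the start site. SOX cores were found in 27.4% and RUNX cores in 13.1% of 35116 promoter windows of this length. The window held no TEAD (CATTCC, in 14.0% of windows), AP-1 (TGACTCA, 4.95%), antioxidant response (TGACNNNGC, 13.3%), metal response (TGCACNC or TGCGCNC, 29.6%) or heat shock core (GAANNTTC or TTCNNGAA, 13.5%). A match describes the letters and not a bound site.

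SPP1 was at 338, 366 and 361 CPM in untreated wild type and at 482, 530.3 and 571 CPM in wild type with copper, and rose by a log2 change of 0.60 ± 0.17 (adjusted p = 0.0327). It was at 669, 562 and 605 CPM in untreated KO and at 338, 349 and 353 CPM in KO with copper, and fell by -0.71 ± 0.17 (adjusted p = 0.00778). Neither pair of ranges overlapped. Untreated KO overlapped wild type with copper, and KO with copper overlapped untreated wild type. The test of the difference between the copper responses gave -1.30 ± 0.24 (adjusted p = 0.0249).

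In KO against wild type SPP1 was higher in untreated cells by 0.66 ± 0.17 (adjusted p = 0.0122) and lower in copper by -0.64 ± 0.17 (adjusted p = 0.0263). Without the 3 libraries that stood apart all SPP1 calls held, and the difference between responses was -1.32 (adjusted p = 2.1e-08). The fall with copper in KO held in each of the 12 fits without 1 library. The difference between responses did not pass in 8 of the 12 (adjusted p = 0.0571 to 0.104: without any 1 untreated wild type or KO copper library, wild type copper replicate 2 or KO untreated replicate 1), although its direction was the same in all 12. The rise with copper in wild type did not pass in 9 (0.0511 to 0.139: without any 1 library of either wild type group or of KO with copper). The higher level in untreated KO did not pass in 2 (0.0518 and 0.0640: without wild type untreated replicate 1 or 3), and the lower level in KO with copper in 6 (0.0509 to 0.101: without wild type untreated replicate 1, wild type copper replicate 2 or 3, or any 1 KO copper library).

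**Figure D4:**
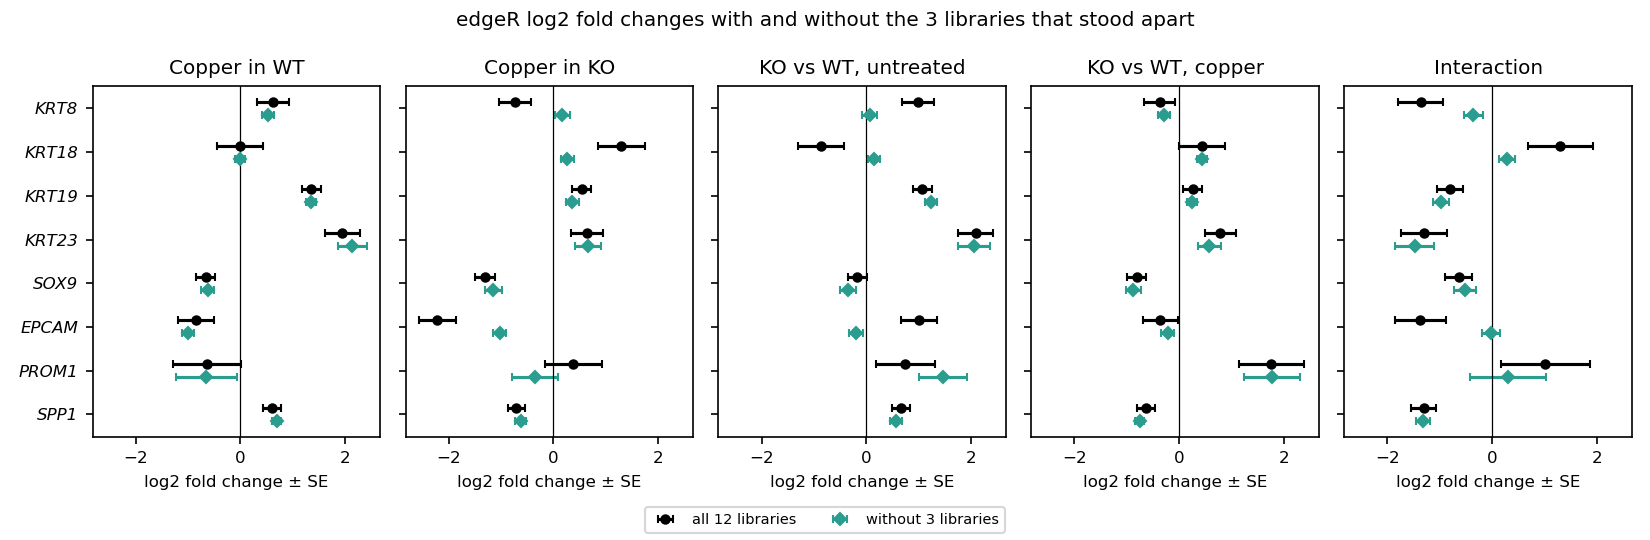
Log2 fold change of each member with all 12 libraries and without the 3 that stood apart on the first principal component, with the SE as a bar; circles are all libraries and diamonds the other 9. EPCAM in untreated KO against wild type moves from 1.01 to -0.20 and KRT8 from 0.99 to 0.06, whereas KRT19, KRT23 and SPP1 stay above 0 in that comparison.

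The genes whose log2 CPM was most like that of each member were taken from 9661 genes with a mean of at least 5 CPM, as a description over the same 12 libraries. For KRT18 they were UFC1 (Pearson r = 0.987), MSRB1 (0.987) and SUPT4H1 (0.983), and for KRT8 SUPT5H (0.959), DGKD (0.956) and UBAP1 (0.949). For EPCAM they were SEMA3B (0.992), CCNF (0.982) and CXXC5 (0.979). KRT18, KRT8 and EPCAM are the members whose KO untreated replicates 1 and 2 lay far from replicate 3, which weighs heavily on these values. SAFB2 was among the nearest 3 for both KRT19 (0.979) and KRT23 (0.954). For SOX9 the nearest was ACSL3P1 (0.984), followed by PEG3 (0.979). For SPP1 the nearest was FOXQ1 (0.943), and the next, SLC5A3, was at 0.883.

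The counts of called genes in the lists that follow stand beside 14.9% of all genes called with copper in wild type, 33.7% with copper in KO, 31.9% for KO against wild type untreated and 13.8% in copper. When the 3 libraries that stood apart were left out, the shares of all genes were 40.0%, 39.6%, 34.5% and 37.9%, so counts with and without them are each read against their own share.

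The label of these genes as bile duct markers was checked against other markers of that cell type. Over the 12 libraries together, KRT7, the type II keratin that pairs with KRT19 in bile duct cells, had 9 counts, CFTR 1, SCTR 3 and AQP1 3. Of 25 cholangiocyte markers 9 were abundant enough to test, and their summed level was 277 to 284 CPM in untreated wild type, 242 to 264 CPM in wild type with copper, 416 to 511 CPM in untreated KO and 291 to 316 CPM in KO with copper. In untreated KO 3 were higher and 1 lower than in wild type. FXYD2, a regulator of the sodium pump, was higher by 1.42 ± 0.27 (adjusted p = 0.00331) and DCDC2, a ciliary protein, by 1.04 ± 0.21 (adjusted p = 0.00420), whereas the epithelial transcription factor ELF3 was lower by -1.87 ± 0.29 (adjusted p = 0.00101). With copper in KO 2 rose and 5 fell. FXYD2 fell by -1.41 ± 0.28 (adjusted p = 0.00268) and DCDC2 by -1.04 ± 0.21 (adjusted p = 0.00303). ELF3 went the other way and rose by 2.21 ± 0.29 (adjusted p = 2.3e-04), the smallest adjusted p of the list there. With copper in wild type 0 rose and 1 fell (ANXA4). In the other 9 libraries 2 were higher and 1 lower in untreated KO, 2 rose and 5 fell with copper in KO and 1 rose and 3 fell with copper in wild type. FXYD2 was then higher in untreated KO by 0.94 (adjusted p = 8.8e-04). Markers of fibroblasts, immune and endothelial cells were mostly near 0, with 1 count of PTPRC and 0 of CD3E and KDR in all libraries. Of 6 tested from that list 0 rose in any comparison with all libraries (1 was higher in untreated KO without the 3), and LYZ, which HepG2 cells themselves held at 1392 ± 61.3 CPM untreated, was lower in untreated KO by -2.48 ± 0.38 (adjusted p = 0.00103).

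Hepatocyte markers, by contrast, were abundant. Of 23 tested, 16 fell and 1 rose in wild type cells given copper. In KO with copper 15 fell and 0 rose, and in untreated KO 9 were lower and 1 higher than in wild type. With just the other 9 libraries 19 fell and 1 rose, 20 fell and 0 rose, and 10 were lower and 2 higher. Their summed level was 29124 to 29508 CPM in untreated wild type, 13641 to 13997 CPM in wild type with copper, 12382 to 16349 CPM in untreated KO and 5748 to 5901 CPM in KO with copper. ALB, serum albumin, was lower in KO by -2.91 ± 0.21 untreated (adjusted p = 8.7e-06) and by -3.19 ± 0.21 with copper (adjusted p = 4.8e-06). KRT19 and KRT23 were thus highest in the group where this list was lowest. Of 18 hepatoblast and progenitor genes tested, 4 were higher and 4 lower in untreated KO, and 1 rose and 7 fell with copper in KO. With the 3 libraries left out, these counts were 6 and 6, and 2 and 10. GPC3, a fetal liver proteoglycan, was at 1806 ± 75.3 CPM in untreated wild type and 32.4 ± 4.71 CPM in untreated KO. PROX1, of the same list, went the other way, at 84.3 ± 7.87 and 178.9 ± 36.2 CPM. The list's medians were -0.37 and -0.65 with copper in wild type and KO.

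SOX9 belongs to the SOX family, of which 6 other members were tested. In untreated KO 3 were higher than in wild type and 0 lower, and with copper in KO 4 fell and 0 rose. In the other 9 libraries 2 were higher and 0 lower in untreated KO, and 2 fell and 1 rose with copper in KO. SOX4, another factor of bile duct development, rose with copper in wild type by 1.63 ± 0.40 (adjusted p = 0.0176) and fell with copper in KO by -1.61 ± 0.40 (adjusted p = 0.00898), and the test of that difference gave -3.24 ± 0.56 (adjusted p = 0.0227). The fall in KO rested on libraries that stood apart: without the 3 it was -0.05 (adjusted p = 0.795), and the difference between the responses was -1.59 (adjusted p = 8.8e-09). SOX6 was higher in untreated KO by 2.19 ± 0.35 (adjusted p = 0.00140) and fell with copper in KO by -2.26 ± 0.36 (adjusted p = 8.7e-04). With the 3 libraries left out, these values were 1.30 (adjusted p = 1.0e-04) and -1.39 (adjusted p = 6.1e-05). In copper 1 member of the family was lower in KO than in wild type, SOX12, by -1.39 ± 0.31 (adjusted p = 0.0114).

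Notch and YAP with TEAD are the pathways best known to set SOX9 and bile duct genes in liver. Of 15 Notch pathway genes tested 1 rose and 0 fell with copper in wild type, and 6 rose and 2 fell with copper in KO, where SOX9 had the lowest level. Over the remaining 9 libraries 3 rose and 3 fell in wild type, and 6 rose and 2 fell in KO. NRARP, a Notch target, rose by 3.28 ± 0.42 in wild type (adjusted p = 5.1e-04) and by 4.50 ± 0.49 in KO (adjusted p = 7.1e-05). The sizes of these rises rest on low untreated levels, 1.77 CPM from 20 counts in wild type and 1.20 CPM from 8 counts in KO. In untreated KO 4 were lower and 0 higher, among them RBPJ, the DNA-binding factor of the pathway, by -1.10 ± 0.19 (adjusted p = 0.00179). Of 21 YAP and TEAD pathway genes, 3 rose and 1 fell with copper in wild type and 7 rose and 2 fell in KO, which is 19.0% and 42.9% called and near the shares of all genes. In the other 9 libraries 6 rose and 4 fell, and 7 rose and 1 fell. The target CCN2 fell with copper in wild type by -2.17 ± 0.31 (adjusted p = 9.6e-04) and rose in KO by 1.90 ± 0.31 (adjusted p = 0.0010), and the test of that difference gave 4.06 ± 0.44 (adjusted p = 0.00262). The target ANKRD1 rose in both, by 1.25 ± 0.18 (adjusted p = 0.00102) and 2.82 ± 0.19 (adjusted p = 3.1e-06).

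Among other keratins, 1 of 43, KRT10, was abundant enough to test, 26 had no count in any library, and 0 passed the test, although KRT10 had an unadjusted p under 0.05 in 3 of the 5 comparisons. KRT10 passed in those comparisons without the 3 libraries. Of 8 other intermediate filament genes tested, 3 rose and 2 fell with copper in wild type and 1 rose and 3 fell in KO. With just the other 9 libraries 4 rose and 2 fell, and 2 rose and 2 fell. The lamin LMNB1 fell in both, by -1.11 ± 0.20 (adjusted p = 0.00333) and -1.13 ± 0.19 (adjusted p = 0.00126). Of 14 genes for desmosomes and keratin linkers, 2 rose and 1 fell with copper in wild type, and 1 rose and 4 fell in KO, which is 21.4% and 35.7% called and near the shares of all genes. Over the remaining 9 libraries 3 rose and 6 fell, and 1 rose and 5 fell. DSP, desmoplakin, which ties keratins to desmosomes, was lower in KO than in wild type by -0.89 ± 0.19 untreated (adjusted p = 0.00563) and by -0.67 ± 0.19 in copper (adjusted p = 0.0381). TCHP, a keratin-binding protein, rose with copper in wild type by 1.12 ± 0.32 (adjusted p = 0.0354) and fell in KO by -0.89 ± 0.32 (adjusted p = 0.0480). The fall rested on libraries that stood apart, since without the 3 it was -0.10 (adjusted p = 0.717).

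Of 11 tested components of Mallory-Denk bodies other than keratins, 4 rose with copper in wild type cells and 9 in KO cells, and 0 fell in either. With the 3 libraries left out, 9 rose in each line and 0 fell. SQSTM1 was at 155 ± 8.62 CPM in untreated wild type, 1196 ± 349 with copper, 617 ± 277 in untreated KO and 1529 ± 138 in KO with copper. It rose by 2.98 ± 0.37 with copper in wild type (adjusted p = 4.6e-04) and by 1.40 ± 0.35 in KO (adjusted p = 0.00980), the latter 2.53 (adjusted p = 3.1e-17) without the 3 libraries. CRYAB, a chaperone of the small heat shock family, went from 0.537 ± 0.0214 to 38.2 ± 4.16 CPM with copper in wild type and from 1.11 ± 0.246 to 179.7 ± 7.92 CPM in KO, the untreated groups resting on 6 counts each. In KO, DNAJB6, a chaperone that binds keratin, rose by 2.92 ± 0.42 (adjusted p = 4.3e-04). The medians of the list were 0.92 in wild type and 1.65 in KO. Of the keratins of these bodies, KRT18 rose with copper in KO (1.30, adjusted p = 0.0411) and KRT8 passed in neither line, though without the 3 libraries it was KRT8 in wild type that passed (0.53, adjusted p = 2.5e-04).

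Of 8 tested partners and proteases of EPCAM, 1 rose and 1 fell with copper in wild type, and 3 rose and 1 fell in KO. In the other 9 libraries 1 rose and 1 fell, and 4 rose and 1 fell. CD9, a tetraspanin, fell in wild type by -2.62 ± 0.67 (adjusted p = 0.0215) and rose in KO by 2.26 ± 0.54 (adjusted p = 0.00763), at means between 0.807 and 14.3 CPM. ADAM17, a sheddase of EPCAM, rose with copper in KO by 1.23 ± 0.28 (adjusted p = 0.00631), where EPCAM fell, and by 0.81 (adjusted p = 8.8e-05) without the 3 libraries. Of 5 tested receptors and proteases of osteopontin, 2 rose and 0 fell with copper in wild type, and 1 rose and 1 fell in KO. With just the other 9 libraries 2 rose and 1 fell, and 3 rose and 1 fell. The integrin ITGAV, a receptor chain, rose with copper in wild type by 0.80 ± 0.22 (adjusted p = 0.0283) and was higher in untreated KO by 1.02 ± 0.22 (adjusted p = 0.00552), the latter 0.51 (adjusted p = 0.0132) without the 3 libraries. FAM20C, a kinase that phosphorylates secreted proteins including osteopontin, fell with copper in KO by -3.12 ± 0.25 (adjusted p = 8.1e-06), as SPP1 did.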

How the data were processed

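QuantSeq 3′ mRNA libraries from 100 ng of total RNA were read for 75 bp, per the labels' protocols. The deposited values are raw read counts per gene, 1 library a file, with no normalization by the authors. STAR 2.3.0, HTSeq and hg19 are named in the submitters' processing notes. The annotation release, the filters and the strand setting of the counting were not given in the sources used here. Of 47634 gene IDs 45776 were matched to a symbol. Counts were tested with edgeR 4.0.16 (R 4.3.3; filterByExpr, TMM, robust quasi-likelihood, 4 group means, 11051 genes, Benjamini-Hochberg over all of them). The biological coefficient of variation was 29.1%. The fit was tested on simulated counts with known changes. Few genes were changed: for copper in wild type, 98 by 2-fold and 98 by 4-fold of 10695 tested, with equal group means for all others. In the real fit 13.8% to 33.7% of all genes were called between groups, so the adjustment of p-values was less strict there. Between groups it recovered 8.16% to 18.9% of 2-fold and 67.0% to 80% of 4-fold changes. For the difference between responses it recovered 1.03% of 2-fold and 34.7% of 4-fold changes. These rates describe the simulated setting and are not the rates of the tests above. A result that did not pass is not shown to be absent. DESeq2 1.42.0, limma 3.58.1 voom and other alternatives are in the closing section.

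The members and gene lists were chosen with earlier results of these data known. All matched members are named in every comparison; from each list, up to 4 genes with the smallest adjusted p among those under 0.05 per comparison could be named, and 3 genes most correlated with each member at a mean of at least 5 CPM. ALB, AFP and SQSTM1 could be named anywhere. KRT7, CFTR, SCTR, AQP1, PTPRC, CD3E, KDR and KRT10 were named in addition, after their values were seen. Some genes are in more than 1 list. Overlaps and shared windows use GENCODE v29. Promoter windows were matched for 4 of 9 members; none was used for KRT18, KRT19, KRT23, SOX9 and EPCAM.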

Additional observations from a re-analysis of the deposited data

Results flagged for a closer look

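The copper response of SPP1 differed between the lines by the interaction test, with a log2 difference of -1.30 ± 0.24 (KO response minus wild type response, edgeR, adjusted p = 0.0249). SPP1 rose with copper in wild type by 0.60 and fell in KO by -0.71. All 3 wild type libraries with copper were above the untreated ones, and all 3 KO libraries with copper were below. Groups of 3 libraries are too small for a test of single outlying libraries within a group. In fits that each left out 1 library the difference did not pass in 8 of the 12 (edgeR, adjusted p = 0.0571 to 0.104). Its direction was the same in all 12.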

How the results depend on the processing

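Members called with copper in wild type, copper in KO, KO against wild type untreated, KO against wild type in copper and for the difference between responses numbered 4, 5, 5, 2 and 1. Size factors of relative log expression, limma voom and added pseudogene counts gave the same 5 numbers. For the difference between responses, 4 members were called with no filter on low counts, 5 by DESeq2 and 2 with library totals as the only scaling. All genes called for it numbered 545 of 11051 in the main fit and 2366 of 24210 with no filter. Of 11051 genes, DESeq2 called 1831, library totals 951 and limma voom 139. Library totals alone and the fit without the 3 libraries that stood apart were chosen after seeing the data. Without the 3 libraries 7 members were called for KO against wild type in copper, and EPCAM in untreated KO was at -0.20 instead of 1.01, a reversed direction. Leaving out 1 library at a time gave 2 to 6, 3 to 6, 2 to 6, 0 to 5 and 0 to 7 members called. All genes called in these fits numbered 736 to 3783, 2373 to 6635, 2058 to 6738, 673 to 3563 and 13 to 5888. The highest numbers for the difference between responses, 7 members and 5888 genes, came without KO untreated replicate 3, and the cause was not tested. With library totals alone the median of all genes was -0.12 with copper in KO and 0.11 in untreated KO. Genes called with copper in wild type numbered 1648, and 4784 without the 3 libraries. Same-numbered replicates did not deviate together (correlations of -0.22 to 0.0912), so no pairing by number was seen. The libraries that stood apart weigh on these deviations and could hide a small shared effect, so a pairing is not excluded. With the replicate number as a block 3, 4, 4, 3 and 1 members were called. In that fit 1490, 3715, 3521, 1274 and 113 of all 11051 genes were. SPP1 with copper in wild type, KRT19 with copper in KO and EPCAM in untreated KO no longer passed. PROM1 in KO with copper passed. Of 800 values of single members under an alternative, 679 kept their side of the threshold (and, where called, their direction), 80 lost the call, 40 gained one and 1 reversed. Depth limits PROM1 most, with 1 count in 1 library.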
